A study of Mus musculus with 38 samples.

Results

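The subject is a set of 10 immediate early genes in mouse skin with deleted or mutated Srsf2: the transcription factors Egr1, Egr2 and Egr3, the nuclear receptor Nr4a1, the phosphatase Dusp1, the RNA-binding protein Zfp36, the early response genes Ier2 and Ier3, and the Krüppel-like factors Klf4 and Klf6. They were picked by name from the deposited expression tables, as 10 of the 49585 genes listed, and all 10 passed the minimum mean of 10 in each table. Because handling of tissue is known to induce these genes, cells that had been sorted and skin that had been snap frozen were read apart throughout.

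The series holds 38 RNA sequencing libraries of mouse back skin in 4 separately normalised tables. Srsf2 encodes a serine and arginine rich splicing factor, and P95H is a point mutation of it known from myeloid blood cancers. In the whole-skin sets a Krt14-CreER driver, which acts in basal keratinocytes and their descendants, deleted Srsf2 or switched on P95H when 4-hydroxy tamoxifen was put on the skin on alternate days. The other cells of the skin kept their alleles, and the zygosity of P95H in whole skin was not given in the labels.

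The knockout set of whole skin holds 3 Cre-positive mice after each of 4, 10 and 12 days of 4-hydroxy tamoxifen. Its 3 Cre-negative controls received the same agent, 2 of them for 12 days and 1 for 10 days, so the 4-day mice had no control of their own time. The tdTomato reporter allele was heterozygous, homozygous or wild type within the controls and the 10-day mice, homozygous or wild type in the 4-day mice and heterozygous in the 12-day mice. The P95H set, all wild type for tdTomato, was sampled after 12 days (5 Cre-negative controls, 2 mutants) and after 28 days (3 Cre-negative controls, 4 mutants), again with 4-hydroxy tamoxifen in every animal. In the sorted knockout set, reporter-positive cells came from 3 control and 3 SRSF2-KO mice after 10 days of 4-hydroxy tamoxifen. In the second sorted set, the same kind of sort was done at 20 weeks on 3 controls and 3 P95H heterozygotes, all given tamoxifen by injection and then the skin carcinogenesis agents DMBA and TPA. Cre and tdTomato genotypes of the sorted mice were not given in the labels. Each library is a separate mouse, and the p-values below measure the spread between these mice.

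Immediate early genes are transcribed within minutes of a growth factor, stress or wounding signal, without new protein synthesis, and their short-lived transcripts decay as quickly. Mitogen-activated protein kinases drive many of them through serum response factor bound to CArG boxes and through CREB bound to cAMP response elements. Several products close the loop: DUSP1 dephosphorylates the kinases, and ZFP36 (tristetraprolin) destabilises AU-rich transcripts of the same class. In the epidermis Klf4 is also a factor of barrier formation, with steady expression in differentiating keratinocytes.

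Promoter letters were searched for sites of the factors above. RefSeq windows on GRCm38.p6 (250 bases before to 50 after a transcription start) were held for 7 of the 10 genes. Letters were searched on both strands. A CArG box, the site of serum response factor, was found in the windows of Egr2 and Zfp36, against 1.63% of all 32851 windows of the same length. Egr2 has 5 annotated starts, and 4 of its 5 upstream stretches, which partly overlap, hold a CArG box, so it had more windows to match in than a gene with 1 start. The core of the cAMP response element, TGACG, was found in Egr2, Nr4a1, Dusp1 and Klf4, against 20.8% of windows, and the full element TGACGTCA, which contains that core, was found in Dusp1 alone of the 7, against 1.79%. The GCGNGGGCG site that EGR proteins bind was found in Nr4a1, Zfp36 and Klf4, against 5.55%. These matches describe letters and not occupied sites. The CArG boxes are shown first, in capitals with 10 bases on each side, because Egr2 and Zfp36 rose in P95H skin at 28 days and Egr2 rose in the 10-day skin labelled knockout. They lie at chr7:28379267-28379296 on the minus strand for Zfp36, inside an annotated exon, and at chr10:67537484-67537513 and chr10:67537787-67537816 on the plus strand for Egr2, 58 bases before the RefSeq start of Zfp36 and 72 bases before each of a pair of Egr2 starts. First and second below count within this pair. The most upstream of the 5 Egr2 starts has no CArG box in its stretch.
Zfp36: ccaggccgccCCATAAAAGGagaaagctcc
Egr2, first start: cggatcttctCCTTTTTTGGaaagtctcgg
Egr2, second start: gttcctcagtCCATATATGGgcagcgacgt

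The upstream stretches of Nr4a1 and Dusp1 are shown because these genes carry TGACG and had lower values in the 10-day skin labelled knockout, Dusp1 past the test and Nr4a1 not. Other genes did not follow this pairing. Egr2 also carries TGACG and rose there, Klf4 carries it and was not called, and Klf6 was called lower without it. Ier3, with neither TGACG nor a CArG box in its window, rose there and in P95H skin. A link between letters and direction was not tested. The Nr4a1 stretch is chr15:101266596-101266845 on the plus strand. Its capitals mark CGTCA, which is TGACG on the opposite strand and occurs 4 times. The Dusp1 stretch is chr17:26508520-26508722 on the minus strand. Its capitals mark TGACG and the full element TGACGTCA.
Nr4a1: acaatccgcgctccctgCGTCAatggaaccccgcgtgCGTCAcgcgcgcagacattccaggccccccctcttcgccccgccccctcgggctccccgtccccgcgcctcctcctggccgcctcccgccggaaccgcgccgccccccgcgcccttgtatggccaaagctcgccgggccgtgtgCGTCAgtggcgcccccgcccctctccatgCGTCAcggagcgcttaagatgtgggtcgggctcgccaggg
Dusp1: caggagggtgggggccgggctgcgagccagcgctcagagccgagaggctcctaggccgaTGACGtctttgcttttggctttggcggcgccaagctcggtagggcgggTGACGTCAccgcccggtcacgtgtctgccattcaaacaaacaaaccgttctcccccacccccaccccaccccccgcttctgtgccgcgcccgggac

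Whole-skin libraries held 28.5 to 37.5 M (1e6) steps in the knockout set and 16.1 to 17.4 M in the P95H set. A step is the smallest spacing between values of a library: every deposited value is a whole multiple of it, genes without signal stand at 1 step, and steps are not shown to be reads. The depth of the sorted sets was 45.9 to 92.8 M reads for the knockout and 11 to 17.2 M reads for DMBA/TPA. Srsf2 in whole skin was at 2885, 2879 and 2996 steps in controls, 2450, 2790 and 2671 at 4 days, 2996, 3084 and 3687 at 10 days and 2303, 2559 and 2382 at 12 days. It passed no test against control (log2 -0.15, 0.15 and -0.28, limma adjusted p = 0.369, 0.286 and 0.164) and was not lower at all at 10 days, so those 3 are called the 10-day libraries labelled knockout. In sorted cells Srsf2 fell from 17560.3, 18190.2 and 20595 normalised reads to 3659, 3359 and 1900.1 (log2 -2.71, SE 0.27, adjusted p = 0.043, limma). P95H changes the protein, so its level checks no label. In the sorted knockout library of replicate 2 a single transcript, Gm26917, took 52.2% of all reads, against at most 10.4% in the other 5, and results there are given with and without it. In both sorted sets 8 of 8 basal keratinocyte markers passed the filter, and in the knockout set they summed to 1.21 to 2.66 M normalised reads, against at most 1928 for 8 fibroblast markers.

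In skin, Egr2, Egr3, Ier2 and Ier3 were higher in the 10-day libraries labelled knockout, and Dusp1 and Klf6 were lower, while Egr1 missed the threshold. Egr2 was 2.02-fold higher than in control, Egr3 1.97-fold, Ier3 1.88-fold and Ier2 1.6-fold. Dusp1 was 1.55-fold lower and Klf6 1.25-fold lower. At 4 and at 12 days none of the 10 genes passed the test. Between the times themselves, Egr1, Egr2, Egr3 and Ier2 rose from 4 to 10 days and fell from 10 to 12 days, and Dusp1 and Klf6 did the reverse.

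Egr2, whose protein binds GC-rich promoters and is known in skin from the hair follicle, was at 1518, 1589 and 1822 steps in control skin and at 3765, 3107 and 3080 in the 10-day libraries labelled knockout. All 3 of the latter lay well above all 3 controls. The change was log2 1.01, SE 0.15, adjusted p = 0.00315 (limma). At 4 days Egr2 was at 1403, 1164 and 1158 steps and at 12 days at 1251, 1424 and 1789. The 4-day values lay below the controls without overlap, at log2 -0.41 (adjusted p = 0.0986), and the 12-day values overlapped them.

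Egr1, the member of the family most used as a marker of recent stimulation, was at 2327, 1621 and 1671 steps in control skin and 2649, 3889 and 3286 in the 10-day libraries labelled knockout. The 10-day libraries were again all above the controls, but the change missed the threshold (log2 0.81, SE 0.33, adjusted p = 0.0932). It was at 1098, 1217 and 769 at 4 days and at 499, 1120 and 1376 at 12 days. Both of these groups lay wholly below the controls, at log2 -0.87 (adjusted p = 0.114) and log2 -1.01 (adjusted p = 0.134). Between the groups labelled knockout themselves, Egr1 rose from 4 to 10 days (log2 1.68, SE 0.33, adjusted p = 0.00214) and fell from 10 to 12 days (log2 -1.82, SE 0.33, adjusted p = 0.00212), the widest swing of the 10 genes.

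Egr3, a close relative of Egr2 best known from lymphocytes and muscle spindles, was at 1123, 844 and 738 steps in controls and at 1285, 2206 and 1901 in the 10-day libraries labelled knockout, a rise of log2 0.98, SE 0.27, adjusted p = 0.0256. At 4 days it was at 685, 678 and 407, below every control, and at 12 days at 500, 704 and 843, overlapping the controls. From 4 to 10 days Egr2 and Egr3 rose by 1.42 (SE 0.15, adjusted p = 7.57e-05) and 1.61 (SE 0.27, adjusted p = 0.000949) on the log2 scale. From 10 to 12 days they fell by 1.17 (adjusted p = 0.0004) and 1.39 (adjusted p = 0.00315). All 3 Egr genes thus had their highest group at 10 days.

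**Figure D1:**
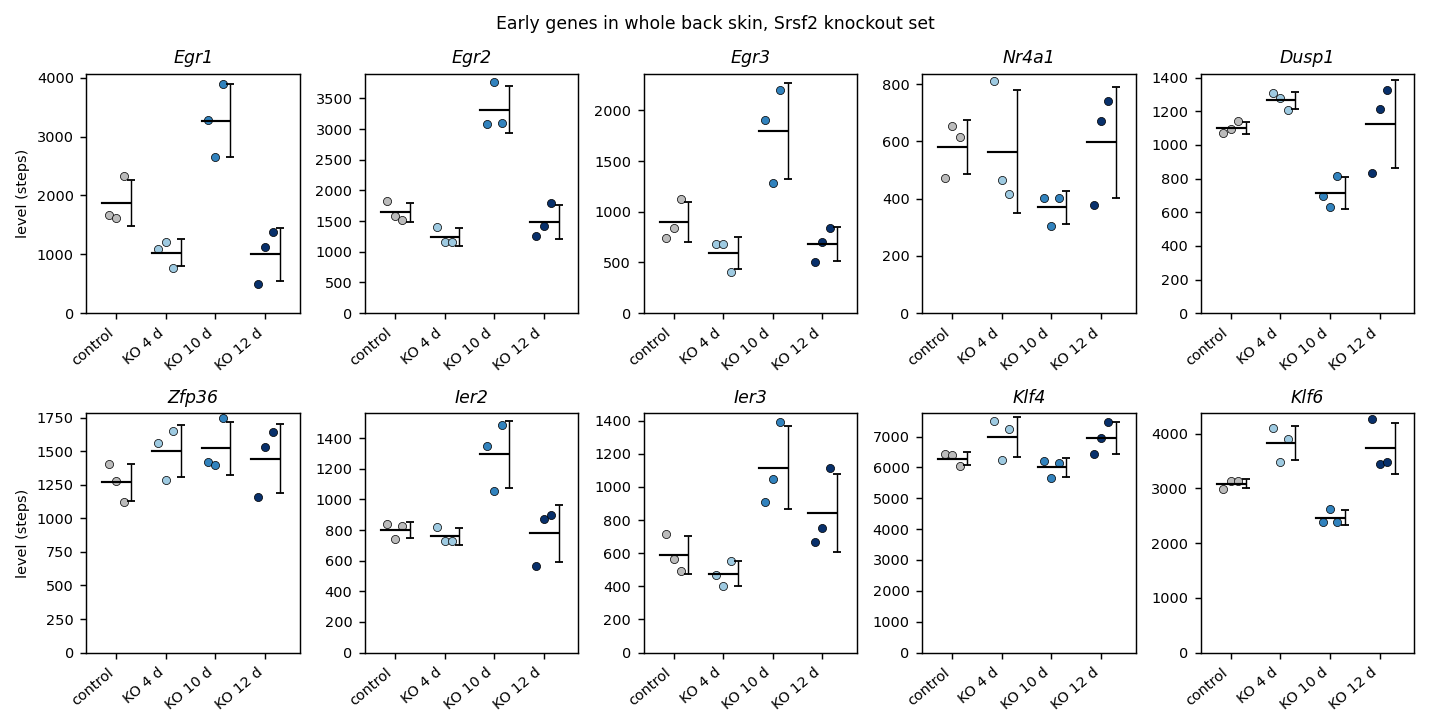
Steps per library (vertical axes, from 0) of the 10 early genes in control whole skin and in whole skin labelled knockout after 4, 10 and 12 days; points are mice, horizontal lines are group means and bars are SD, n = 3 per group. Egr2 stands at 3080 to 3765 steps in the 10-day libraries labelled knockout and at 1158 to 1822 in the other 9 libraries, while Dusp1 is at its lowest, 631 to 816, in the 10-day group.

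The Ier genes followed the Egr genes at 10 days. Ier2, a small nuclear protein, was at 826, 739 and 839 steps in controls and at 1054, 1484 and 1346 in the 10-day libraries labelled knockout (log2 0.68, SE 0.18, adjusted p = 0.0216). Ier3, a stress-inducible regulator of cell survival whose own transcript is a ZFP36 target, was at 492, 564 and 717 in controls and 1045, 1394 and 908 at 10 days (log2 0.91, SE 0.22, adjusted p = 0.0166). Neither gene's 10-day values overlapped the controls. At 4 days Ier2 was at 823, 730 and 727 and Ier3 at 471, 404 and 553, and at 12 days they were at 563, 873 and 897 and 666, 754 and 1112. Those groups overlapped the controls. From 10 to 12 days Ier2 fell (log2 -0.75, SE 0.18, adjusted p = 0.00824), whereas the change of Ier3 did not pass (log2 -0.41, SE 0.22, adjusted p = 0.165).

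Dusp1, the phosphatase that shuts off p38, JNK and ERK, went the other way. It was at 1139, 1092 and 1070 steps in controls, 1310, 1276 and 1208 at 4 days, 631, 816 and 695 in the 10-day libraries labelled knockout and 832, 1215 and 1325 at 12 days. The 10-day values were the lowest of the set and did not overlap the controls (log2 -0.63, SE 0.16, adjusted p = 0.0178), and Dusp1 was also lower at 10 than at 4 days (log2 -0.83, SE 0.16, adjusted p = 0.00182). Nr4a1, an orphan nuclear receptor, was at 616, 653 and 473 steps in controls and 304, 402 and 404 at 10 days, below every control but not past the test (log2 -0.65, SE 0.29, adjusted p = 0.123). Its 4-day values, 810, 466 and 416, and its 12-day values, 377, 670 and 742, overlapped the controls and spread widely. Nr4a1 passed no comparison in this set.

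Zfp36 showed no called change at any time. It was at 1124, 1280 and 1403 steps in controls, 1565, 1287 and 1655 at 4 days, 1396, 1751 and 1422 at 10 days and 1156, 1535 and 1647 at 12 days, with all groups overlapping. Its 10-day interval, -0.09 to 0.61 log2, includes no change. Its sign at 10 days depended on the scaling: log2 0.26 here and -0.06 when each library was set to the same total.

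Klf6, a tumour suppressor of the Krüppel-like family, was at 3138, 3129 and 2997 steps in controls and 2623, 2377 and 2388 in the 10-day libraries labelled knockout, a fall without overlap (log2 -0.33, SE 0.11, adjusted p = 0.0421). It was higher than control without overlap at 4 days, 4098, 3489 and 3911 (log2 0.31, SE 0.11, adjusted p = 0.0833), and at 12 days, 4272, 3450 and 3476 (log2 0.27, SE 0.11, adjusted p = 0.196), neither past the test. Klf4 was at 6040, 6387 and 6420 in controls, 7489, 6240 and 7236 at 4 days, 5643, 6155 and 6218 at 10 days and 6425, 6963 and 7480 at 12 days. Its changes against control stayed between log2 -0.07 and 0.15, and the sign at 10 days turned to 0.21 with the deposited scaling. Klf4 was the most even of the 10 genes over these 12 libraries.

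Against the background, 6 of 10 genes called at 10 days (4 higher, 2 lower) compares with 25.3% of the 19450 genes tested (13.3% higher and 11.9% lower). Values lay above control without overlap for 5 of 10 genes and for 22% of all genes, and below it for 3 of 10 and for 21.1%. From 4 to 10 days 7 of 10 were called (5 higher, 2 lower) against 40.3% of genes (18.9% higher, 21.4% lower), and from 10 to 12 days 6 of 10 (2 higher, 4 lower) against 37.6% (19.2% higher, 18.3% lower). At 4 days 0 of 10 were called by limma, where 11.3% of all genes were and 26.8% had an unadjusted p under 0.05. At 12 days 0 of 10 were called by limma, with 1.28% of all genes called and 19.7% at an unadjusted p under 0.05. The genes' median log2 change was -0.08 at 4 days, 0.47 at 10 days and -0.00 at 12 days, and that of all genes -0.01, -0.02 and 0.00. edgeR and DESeq2 were not run on steps, which are not shown to be reads.

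The 10-day calls changed with the scaling, and fewer passed when any 1 library was left out. Leaving 1 out also leaves a group of 2 mice, and the part of that smaller number was not tested. With each library set to the same total, a setting that moves the median of all genes by -0.34, the split was 2 higher (Egr2, Ier3) and 4 lower (Nr4a1, Dusp1, Klf4, Klf6). With the deposited scaling, which moves it to 0.26, it was 4 higher (Egr2, Egr3, Ier2, Ier3) and 0 lower. With only the compared groups in the fit it was 5 higher and 3 lower. Between 10 and 4 days the same 2 scalings gave 5 higher and 4 lower, and 5 higher and 0 lower, in place of 5 and 2 (all-gene medians -0.26 and 0.34). Between 12 and 10 days they gave 4 and 4, and 0 and 4, in place of 2 higher and 4 lower (medians 0.35 and -0.16). Without control replicate 2 the count at 10 days was 1 (Egr2), without 10-day replicate 2 it was 2 (Egr2, Dusp1), without 10-day replicate 3 it was 3, and without any of the other 3 libraries it was 4. With a minimum mean of 1, which raises the number of genes adjusted for, it was also 1 (Egr2), and the other 5 calls were lost. In whole skin that minimum also keeps genes without signal, which stand at 1 step. Egr2 was called in each of these settings.

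**Figure D2:**
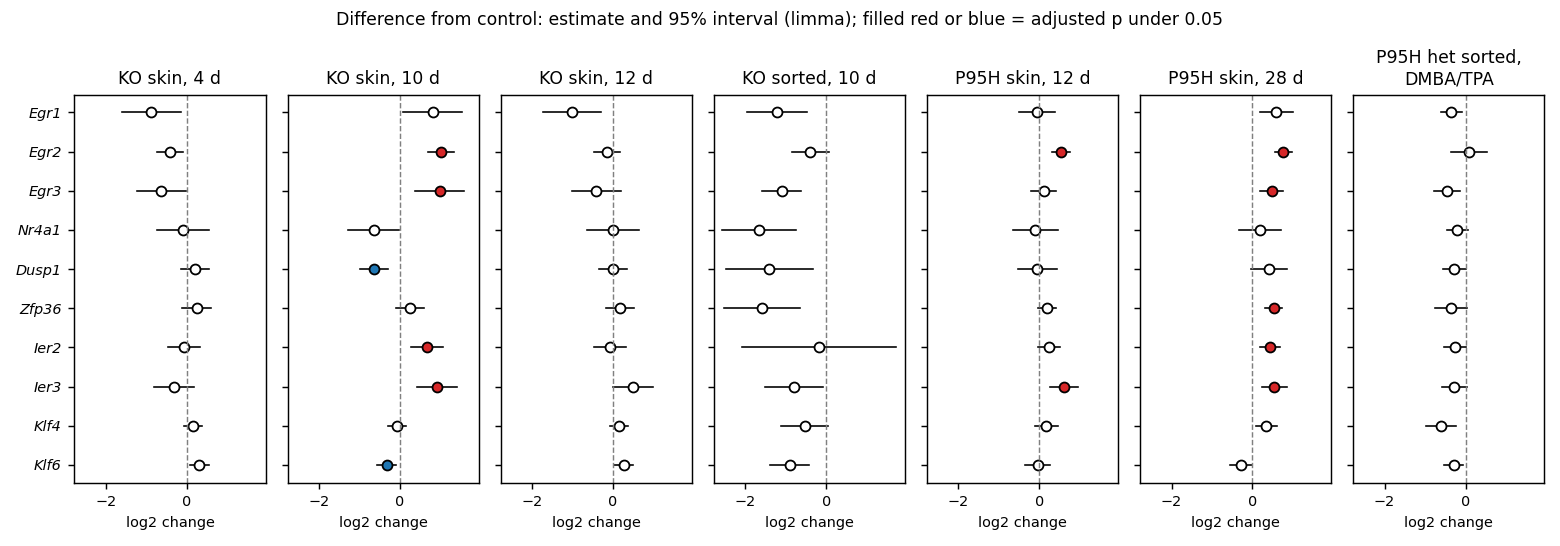
Log2 change of the 10 early genes (vertical axis) in 7 comparisons of mutant with control, with 95% intervals from limma; red marks a rise and blue a fall at an adjusted p under 0.05. Egr2 is called at log2 1.01 in the 10-day libraries labelled knockout, 0.53 in P95H skin at 12 days and 0.76 at 28 days, and no gene is called in either sorted set.

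The 10-day libraries labelled knockout also differed in tissue makeup, and fewer cells of a type cannot be told apart from less RNA per cell in bulk skin. Hair shaft and root sheath markers were higher for 17 of 17 tested (median log2 6.82), and these 17 summed to 2.72 to 3.75 M steps against 2564 to 130878 in controls. Melanocyte markers were higher for 7 of 8, endothelial markers lower for 7 of 8 and skeletal muscle markers lower for 6 of 8. At 4 days 8 of 8 fibroblast and 8 of 8 macrophage markers were higher. Of the hair markers, 2 of 17 were called lower, but all 17 had a negative change (median log2 -3.16). At 12 days 3 of 4 tested neutrophil markers were higher, with the 8 markers at 1613 to 2252 steps against 327 to 488. The part of these shifts in the early gene values was not tested.

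The other genes of the pathway were counted at 10 days in lists chosen with earlier results known, beside the 13.3% of all genes called higher and 11.9% called lower. Of 22 tested relatives of the 10 genes (Egr, Nr4a, Dusp, Zfp36, Ier and Klf families), 7 rose and 3 fell, with a median of 0.22. The leading risers were the phosphatases Dusp14 (log2 2.31, adjusted p = 0.00762), Dusp5 (1.38, 0.00778) and Dusp2 (2.91, 0.00883), and the early response gene Ier5 (0.65, 0.0109). Of the 10 AP-1 genes, 4 rose and 0 fell: Junb (log2 0.99, adjusted p = 0.00815), Jun (0.40, 0.0341), Fosl2 (0.51, 0.0353) and Maff (0.47, 0.0355). Of 37 other early genes 10 rose, led by the kinase Plk3 (log2 1.53, adjusted p = 0.0043) and the antiproliferative Btg2 (0.69, 0.0045), and 1 fell. Fos itself was not called.

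Kinases and factors that act upstream were counted in the same way. Of 20 SRF, CREB and MAP kinase genes, 1 rose at 10 days (Braf, log2 0.80, adjusted p = 0.0122) and 4 fell, among them the SRF partner Elk3 (log2 -0.56, adjusted p = 0.0243). Of 15 feedback genes 2 rose, the EGR corepressor Nab2 (log2 0.64, adjusted p = 0.0198) and the ERK phosphatase Dusp6 (1.04, 0.0257), which also stands in the family list, a share like the 13.3% of all genes. Of 13 tested ZFP36 targets Ier3 alone rose. At 4 days, where 11.3% of all genes were called, 1 of 22 tested family relatives rose and 3 fell. Klf2 rose (log2 0.88, adjusted p = 0.0145). The phosphatases Dusp5 (log2 -1.08, adjusted p = 0.0279), Dusp14 (-1.74, 0.0314) and Dusp8 (-0.84, 0.0348) fell, and Dusp2 was not called (-0.95, 0.332). Of the feedback genes 2 rose and 0 fell, and of the upstream genes 2 rose and 0 fell. Of the AP-1 genes 1 rose and 1 fell, and of the other early genes 3 rose and 2 fell. At 12 days 0 of these genes passed by limma outside the heat shock list.

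In P95H skin Egr2 and Ier3 were higher than in control at both times. At 12 days Egr2 was 1.44-fold and Ier3 1.53-fold higher than control. At 28 days Egr2 (1.7-fold), Ier3 (1.46-fold), Zfp36 (1.44-fold), Egr3 (1.39-fold) and Ier2 (1.34-fold) were higher, and no early gene fell.

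Egr2 at 12 days was at 1231, 1124, 1190, 1212 and 1188 steps in the 5 controls and 1693 and 1741 in the 2 P95H mice (log2 0.53, SE 0.11, adjusted p = 0.00744, limma). At 28 days it was at 1311, 1265 and 1140 in controls and 2458, 2039, 1732 and 2227 in the 4 P95H mice (log2 0.76, SE 0.10, adjusted p = 0.000383). At both times every P95H value lay above every control. Control skin gave 1124 to 1311 steps over its 8 mice, a narrower range than that of the P95H mice at 28 days.

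Egr1 was not called at either time. At 12 days it was at 1575, 1526, 1341, 1379 and 1760 in controls and 1263 and 1667 in P95H skin, with the P95H values on both sides of the control median (log2 -0.06, SE 0.21, adjusted p = 0.908). At 28 days it was at 1190, 1448 and 982 in controls and 1355, 1862, 1610 and 2584 in P95H skin, 3 of 4 above all controls, just short of the threshold (log2 0.59, SE 0.19, adjusted p = 0.0519). Egr3 was at 926, 862 and 842 in controls at 28 days and 1377, 1230, 977 and 1318 in P95H skin, a rise without overlap (log2 0.47, SE 0.13, adjusted p = 0.0328). At 12 days its P95H values, 1009 and 935, lay among the controls, 869, 793, 842, 852 and 1179 (log2 0.11, SE 0.14, adjusted p = 0.706).

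Zfp36, the decay factor, was at 706, 733 and 713 steps in controls at 28 days and 914, 1076, 1001 and 1144 in P95H skin (log2 0.52, SE 0.09, adjusted p = 0.00398), again with no overlap. At 12 days it was at 765, 901, 816, 729 and 859 in controls and 853 and 1007 in P95H skin, which overlapped (log2 0.19, SE 0.10, adjusted p = 0.301). Ier3 was at 428, 362, 320, 329 and 385 and 490 and 626 at 12 days (log2 0.61, SE 0.16, adjusted p = 0.0339), and at 379, 351 and 292 and 529, 555, 383 and 528 at 28 days (log2 0.54, SE 0.15, adjusted p = 0.0279). The P95H replicate 3 at 28 days, 383, lay just above the highest control, 379. Ier2 was at 438, 414 and 367 and 463, 559, 561 and 609 at 28 days (log2 0.43, SE 0.12, adjusted p = 0.0289), without overlap.

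Dusp1 and Nr4a1 were not called at either time. At 28 days Dusp1 was at 996, 1302 and 865 in controls and 1036, 1302, 1270 and 2178 in P95H skin, where replicate 4 stood far above the rest (log2 0.42, SE 0.21, adjusted p = 0.195). Nr4a1 was at 525, 637 and 651 and 774, 633, 428 and 1066, with the same replicate highest (log2 0.19, SE 0.24, adjusted p = 0.633). At 12 days the changes were log2 -0.04 for Dusp1 and -0.10 for Nr4a1, with intervals of -0.53 to 0.44 and -0.66 to 0.47. These 2 genes had the widest intervals of the 10 in this set.

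Klf4 at 28 days was at 5378, 5287 and 5636 in controls and 8184, 6998, 5445 and 7189 in P95H skin, 3 of 4 above the controls (log2 0.34, SE 0.12, adjusted p = 0.0738). Klf6 was at 3229, 2830 and 3130 and 1912, 2724, 2414 and 3117, overlapping (log2 -0.29, SE 0.13, adjusted p = 0.152), and its sign turned to 0.32 with the deposited scaling. At 12 days Klf4 was at log2 0.18 and Klf6 at -0.04, neither called.

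**Figure D3:**
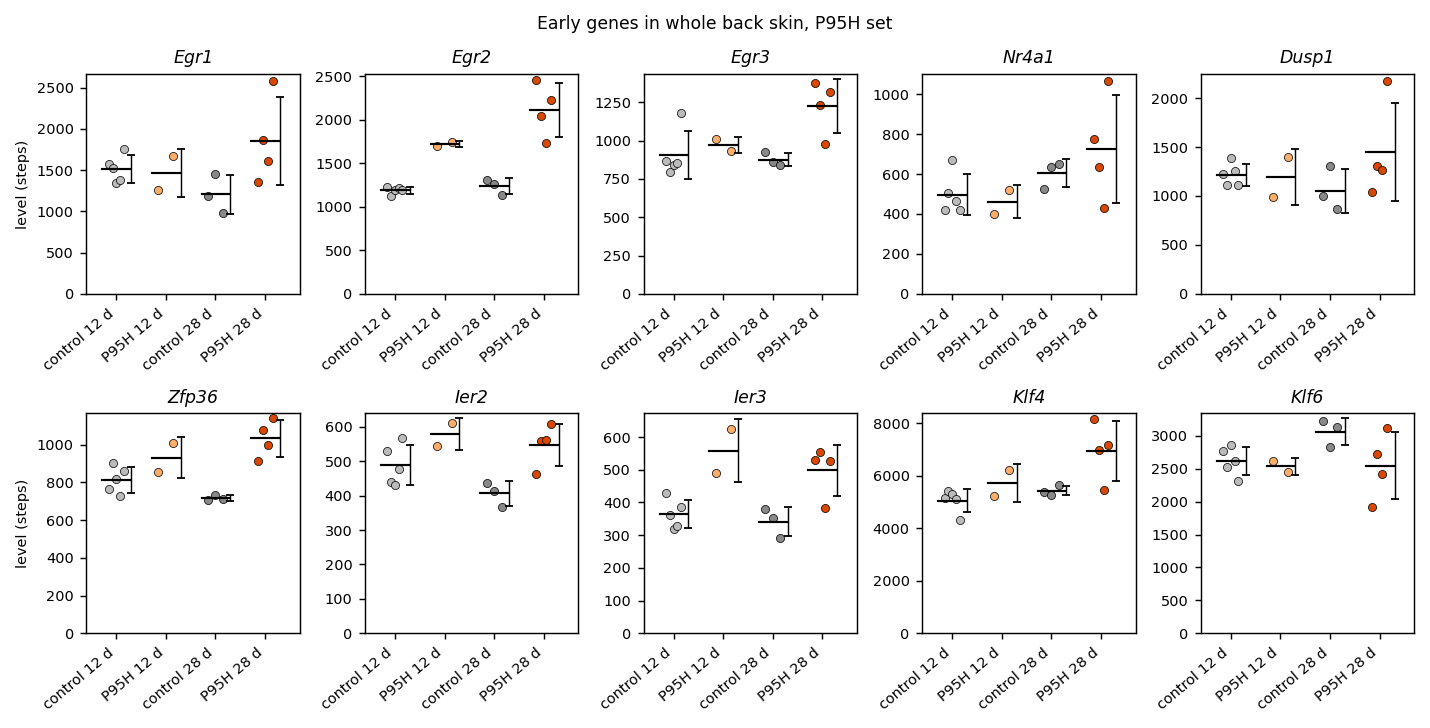
Steps per library (vertical axes, from 0) of the 10 early genes in control and P95H whole skin at 12 days (n = 5 and 2) and 28 days (n = 3 and 4); points are mice, horizontal lines are means and bars are SD. Egr2 is at 1693 to 2458 steps in the 6 P95H mice and at 1124 to 1311 in the 8 controls, while Dusp1 and Nr4a1 overlap at both times.

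Of the 10 genes, 2 were called at 12 days, where 6.93% of 18311 genes were (3.96% higher and 2.97% lower), and 5 at 28 days, where 12.2% were (6.7% higher and 5.46% lower). Their median log2 change was 0.14 at 12 days and 0.45 at 28 days, against -0.00 and -0.01 for all genes. The 12-day count was 0 without P95H replicate 2, and 1 (Egr2) without control replicate 2, 3 or 4. The 28-day count was 2 without control replicate 4 or P95H replicate 2 (Egr2 and Zfp36 each time), 3 without control replicate 2, and 3 (Egr2 and Zfp36 higher, Klf6 lower) without P95H replicate 4. With the deposited scaling, which moves the median of all genes at 28 days to 0.59, the count was 1 (Egr2), and at 12 days 0. With a minimum mean of 1 the count was 2 (Egr2, Zfp36) at 28 days and 1 (Egr2) at 12 days, and with only the compared groups in the fit it was 3 (Egr2, Egr3, Zfp36) at 28 days.

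The change from 12 to 28 days was not itself called. The difference between the P95H effects at the 2 times was largest for Egr1 (log2 0.65, SE 0.28, adjusted p = 0.569) and for Zfp36 it was 0.33 (adjusted p = 0.566). By limma 0 of 10 genes passed, with 0.0109% of all genes called and 8.21% at an unadjusted p under 0.05. Controls alone were compared between 28 and 12 days of 4-hydroxy tamoxifen, and again 0 of 10 genes passed by limma (0.00546% of genes called and 11.7% at an unadjusted p under 0.05). The control changes ran from log2 -0.34 (Egr1) to 0.30 (Nr4a1).

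At 28 days, where 6.7% of all genes were called higher and 5.46% lower, 5 of 10 AP-1 genes rose and 0 fell, including Fosl1 (log2 1.41, adjusted p = 0.0219), Junb (0.66, 0.034), Fosb (1.64, 0.0402) and Jund (0.33, 0.0405). Of 22 tested family relatives 6 rose, led by Ier5 (log2 0.70, adjusted p = 0.00824), the kinase phosphatase Dusp16 (0.36, 0.012), Klf13 (0.38, 0.0158) and Nr4a3 (0.88, 0.0183). Of 37 other early genes 8 rose, led by Plk3 (log2 1.13, adjusted p = 0.00407), Plk2 (0.63, 0.00627) and the growth factor Hbegf (1.19, 0.00773), and 2 fell, among them Arrdc3 (-0.64, 0.00249). Of 9 tested ZFP36 targets 5 rose, including the chemokine Ccl2 (log2 1.41, adjusted p = 0.00477), Myc (0.29, 0.0109), Vegfa (0.42, 0.0277) and Ier3. Of 15 feedback genes 0 were called by limma, and of 20 upstream genes 4 rose, among them Map2k1 (log2 0.34, adjusted p = 0.0385) and Rps6ka1 (0.35, 0.00751).

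At 12 days 3.96% of all genes were called higher and 2.97% lower. Of 22 family relatives 1 rose, of 37 other early genes 4 rose and 2 fell, of 15 feedback genes 2 fell and of 9 ZFP36 targets 2 rose. Nr4a3 rose (log2 0.96, adjusted p = 0.0241), as did the other early genes Cebpb (0.77, 0.00278), Plk2 (0.64, 0.0112) and Bhlhe40 (0.55, 0.0147), while Arrdc3 fell (-0.63, 0.00547). Of the feedback genes Sik1 (log2 -0.40, adjusted p = 0.0224) and Spred2 (-0.29, 0.0334) fell. The cytokine Il1b, a ZFP36 target, rose by 2.53 on the log2 scale (adjusted p = 0.00231). No AP-1 gene was called by limma. Neutrophil markers summed to 368 to 852 steps in P95H skin against 152 to 222 at 12 days, and to 314 to 639 against 130 to 270 at 28 days. Suprabasal keratinocyte markers rose for 3 of 8 and fell for 1 of 8 at 28 days. The part of either in the early gene values was not tested.

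In sorted keratinocytes, the early genes were lower in SRSF2-KO than in control cells, but no single gene passed the test. Of the 10, 9 had all 3 knockout values below all 3 control values. The largest differences were Nr4a1 (3.15-fold lower), Zfp36 (3-fold), Dusp1 (2.64-fold) and Egr1 (2.33-fold).

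Nr4a1 was at 46143, 68076 and 71782 normalised reads in control and 10488, 25086 and 27294 in knockout cells (log2 -1.66, SE 0.39, adjusted p = 0.145, limma). Zfp36 was at 93224, 106959 and 129391 and 19050, 58777 and 42478 (log2 -1.59, SE 0.41, adjusted p = 0.166). Dusp1 was at 55005, 60989.5 and 79499.8 and 11112, 39803 and 32724 (log2 -1.40, SE 0.46, adjusted p = 0.215). In each of the 3 genes knockout replicate 1 was far below the other knockout mice.

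Egr1 was at 88094, 107289 and 104699 normalised reads in control and 26398, 50918 and 57912 in knockout cells (log2 -1.22, SE 0.32, adjusted p = 0.169), with replicate 1 again lowest. Egr3 was at 5172, 5864 and 5495 and 3098, 2123 and 2553 (log2 -1.10, SE 0.20, adjusted p = 0.12), where replicate 1 was the highest knockout mouse instead. Egr2 was at 15182, 14043 and 17515 and 10120, 12207 and 13477 (log2 -0.39, SE 0.20, adjusted p = 0.351), the smallest difference of the Egr genes. Its highest knockout value, 13477, lay close under the lowest control, 14043.

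Klf6 was at 26284, 28302 and 31547 in control and 12828, 15234 and 18449 in knockout cells (log2 -0.90, SE 0.21, adjusted p = 0.144), and Klf4 at 51813, 51366 and 69361 and 30126, 47168 and 43026 (log2 -0.53, SE 0.25, adjusted p = 0.322). Ier3 was at 10290.1, 12187 and 12049 and 10288, 4407 and 6491 (log2 -0.79, SE 0.31, adjusted p = 0.26), and replicate 1 of each group had almost the same value. Ier2 was the exception, at 22515, 28973 and 28353 in control and 7566, 101751 and 16554 in knockout cells. Its value in knockout replicate 2 was above every control and those of replicates 1 and 3 below every control, and its sign differed between limma (log2 -0.18, adjusted p = 0.926) and edgeR (0.66).

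**Figure D4:**
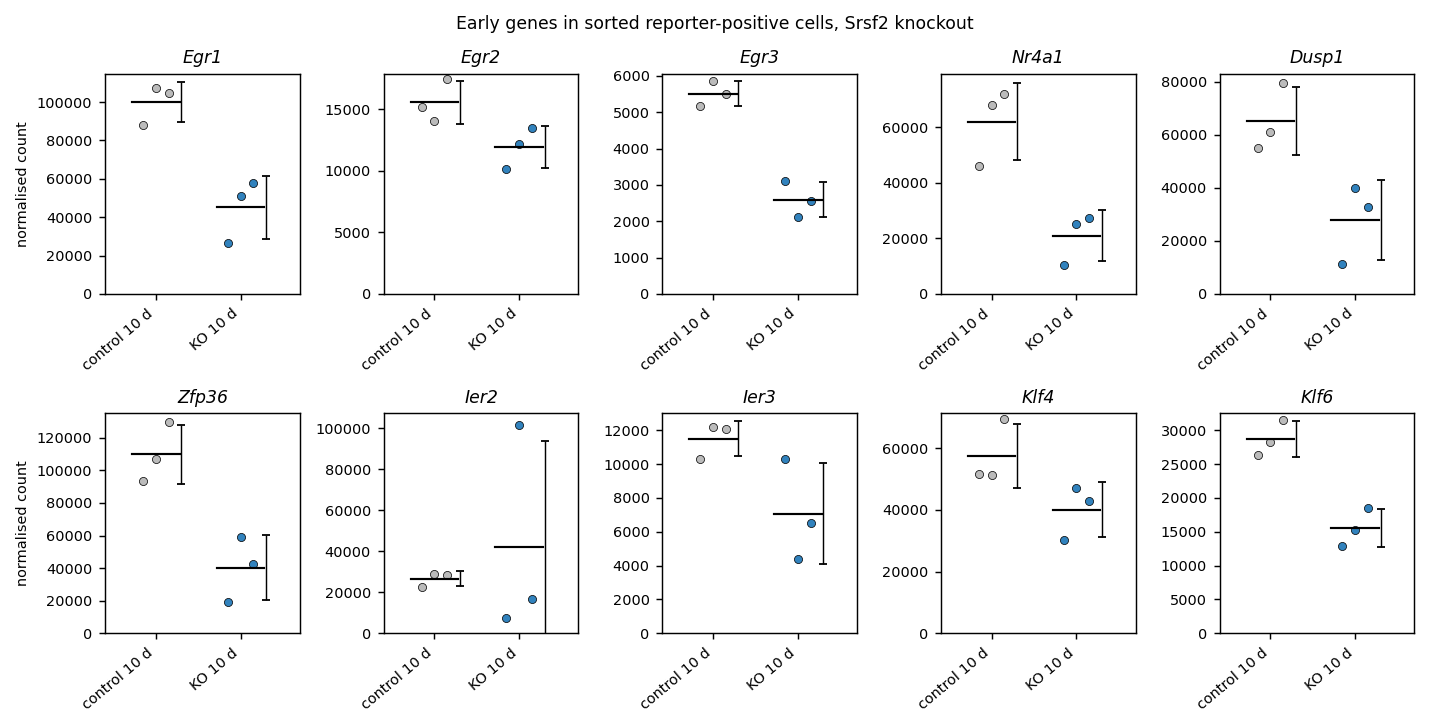
Normalised reads per library (vertical axes, from 0) of the 10 early genes in sorted reporter-positive cells of control and SRSF2-KO mice after 10 days; points are mice (n = 3 per group), horizontal lines are means and bars are SD. Nr4a1 lies at 10488 to 27294 in knockout and 46143 to 71782 in control cells, and Ier2 in knockout replicate 2 stands apart at 101751.

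By limma 0 of 10 genes were called, against 0.0394% of 17744 genes, and 17.2% of genes had an unadjusted p under 0.05. edgeR called 0 of the 10 and 0.0167% of all genes, and DESeq2 called 5 (Egr1, Egr3, Nr4a1, Zfp36, Klf6) and 7.12% of all genes, so the calls rest on the tool. On the deposited scaling, values lower without overlap were found for 9 of 10 genes and for 15.8% of all genes. Without knockout replicate 2, in which Gm26917 took over the library, limma called 2 (2.33% of all genes), Egr3 (log2 -0.97, adjusted p = 0.0369) and Zfp36 (-1.94, 0.0447), edgeR called 1 (Egr3, with 2% of all genes), and all 10 genes, Ier2 included, were lower without overlap, against 23.8% of all genes lower and 22.7% higher. The genes' median log2 change was -1.0 beside -0.04 for all genes, and with each library set to the same total the median of all genes was -0.38.

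Knockout replicate 1 was lowest of the knockout mice for 8 of the 10 genes (30.1% of all genes). Control replicate 1 was likewise lowest of the controls for 8 (38.7% of all genes). Knockout replicate 1 also had a neutrophil marker sum of 22995, against 168 and 1424 in the other knockout mice and 23.1 to 398 in controls. That sum was made mostly of S100a8 and S100a9, which stressed keratinocytes also express, and 3 of the 8 markers passed the filter. Its part in the early gene values was not tested. Without replicate 1 limma again called 0 of the 10 genes.

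No gene of the AP-1, family, other early, feedback or ZFP36 target lists passed by limma in sorted knockout cells. The median log2 change was -0.88 for 10 AP-1 genes (4 lower without overlap, 1 higher), -0.68 for 37 other early genes (16 lower, 0 higher), -0.47 for 23 family relatives (5 lower, 0 higher), -0.45 for 15 feedback genes (5 lower, 0 higher) and -0.76 for 15 ZFP36 targets (8 lower, 1 higher), beside -0.04 for all genes, of which 15.8% were lower without overlap. Fos, chosen for naming after its values were seen, was at 121909, 124461 and 143253 normalised reads in control and 26273, 67796 and 66312 in knockout cells. The 13 heat shock genes, which dissociation also induces, had a median of 0.04, with 2 lower and 2 higher without overlap.

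At 10 days, then, skin and sorted cells gave opposite signs for part of the genes, in tables normalised separately and with no test between them. Egr2 was log2 1.01 in whole skin and -0.39 in sorted cells, Egr1 0.81 and -1.22, Egr3 0.98 and -1.10, and Ier3 0.91 and -0.79. Dusp1 was lower in both, at -0.63 and -1.40, as were Nr4a1, at -0.65 and -1.66, and Klf6, at -0.33 and -0.90. In steps, the 10-day skin libraries labelled knockout did not have lower Srsf2 than control. In normalised reads, the sorted knockout cells did.

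After DMBA/TPA, heterozygous P95H cells had slightly lower early genes than control cells. Of the 10, 5 were lower without overlap, of which Klf4 differed most (1.53-fold lower) and Egr3 next (1.38-fold). None passed the limma test.

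Klf4 was at 9995, 7315 and 11735 normalised reads in control and 6556, 6663 and 5484 in P95H cells (log2 -0.61, SE 0.17, adjusted p = 0.167, limma). Every P95H mouse was below every control mouse, and DESeq2 called the gene (log2 -0.63, adjusted p = 0.00749). Egr3 was at 1261, 1162 and 1589 and 1099.5, 815 and 992 (log2 -0.46, SE 0.14, adjusted p = 0.191), and Egr1 at 15128, 13874 and 16174 and 11234, 11373 and 12882 (log2 -0.35, SE 0.11, adjusted p = 0.203). Egr2 was the only gene of the 10 with a higher fitted value, at 4616, 4349 and 7508 and 6346, 4863 and 5863, overlapping and not called (log2 0.09, SE 0.19, adjusted p = 0.856).

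Nr4a1 was at 22285, 20645 and 22842 in control and 18490.5, 19930.4 and 18684 in P95H cells (log2 -0.20, SE 0.11, adjusted p = 0.404), and Klf6 at 11329, 11129 and 13028 and 10228, 9491 and 9176 (log2 -0.29, SE 0.11, adjusted p = 0.239). Both were lower without overlap and not called. Dusp1 was at 12783, 10718 and 10702 and 8549, 10808 and 8867 (log2 -0.28, SE 0.13, adjusted p = 0.316), and Zfp36 at 10869.8, 9807 and 15689 and 7957, 9978 and 10116 (log2 -0.35, SE 0.18, adjusted p = 0.36). Ier2 changed by log2 -0.25 and Ier3 by -0.28, and the values of these 4 genes overlapped between the groups.

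**Figure D5:**
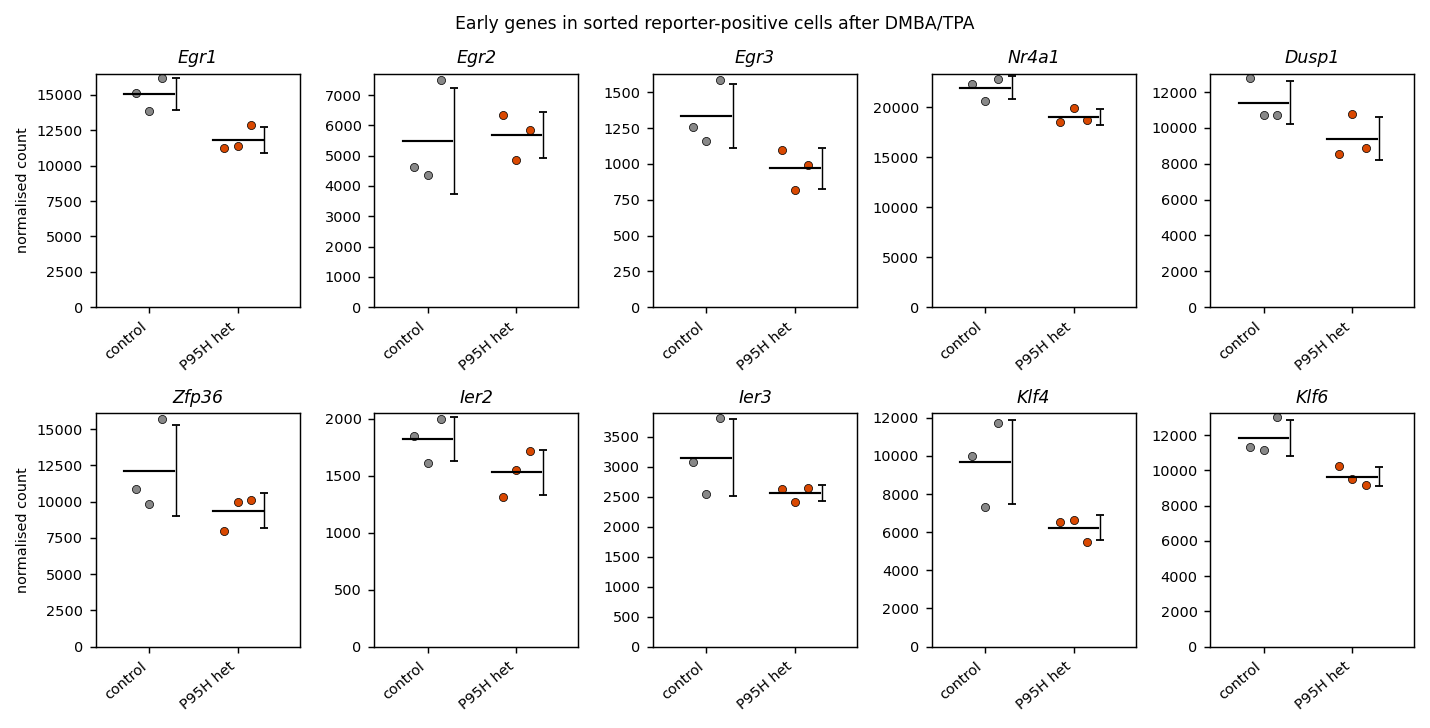
Normalised reads per library (vertical axes, from 0) of the 10 early genes in sorted reporter-positive cells of control and heterozygous P95H mice after DMBA/TPA at 20 weeks; points are mice (n = 3 per group), horizontal lines are means and bars are SD. Klf4 is at 5484 to 6663 in P95H and 7315 to 11735 in control cells, and Egr2 overlaps.

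By limma 0 of 10 genes were called in the DMBA/TPA set, against 0% of 14914 genes, with 15.9% at an unadjusted p under 0.05. edgeR called 0 of the 10 (0.00668% of all genes) and DESeq2 1 (Klf4, with 2.26% of all genes). On the deposited scaling, lower values without overlap were found for 5 of 10 genes and for 10.5% of all genes. The genes' median was log2 -0.29, beside -0.01 for all genes. The median was -0.42 for 9 tested AP-1 genes, -0.40 for 37 other early genes (14 lower without overlap), -0.40 for 15 feedback genes (9 lower) and -0.02 for 13 heat shock genes (0 lower).

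Levels of the 10 genes stand in a different order in frozen skin and in sorted cells. Per kilobase of annotated exon, Klf4 was highest in all 8 whole-skin groups, at 2060.5 ± 69 steps per kb in knockout-set controls (SD, n = 3), with Klf6 next at 703 ± 18. Ier2 (526 ± 35.7), Ier3 (523 ± 102) and Egr2 (484 ± 46.8) followed with overlapping SD ranges. Egr3 (205 ± 45.1) and Nr4a1 (165 ± 27.1) were last. In sorted control cells of the knockout set Zfp36 led, at 31659 ± 5261 normalised reads per kb, ahead of Egr1 (22308 ± 2323), Dusp1 (19681 ± 3857), Klf4 (18863 ± 3366), Nr4a1 (17669 ± 3949) and Ier2 (17486 ± 2341), where each neighbouring pair from Egr1 to Ier2 had overlapping SD ranges. Ier3 (10176 ± 935), Klf6 (6539 ± 605), Egr2 (4585 ± 521) and Egr3 (1251 ± 78.6) closed the order. In DMBA/TPA controls Nr4a1 led (6248 ± 326), and Egr3 was last in all 4 sorted groups.

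Set side by side without a test, the same genes ranked far higher among all genes in sorted cells. Egr1 stood at percentile 80.6 to 87.2 of the genes tested in control skin of the knockout set and at 99.8 in sorted controls, 57.2 to 80.1 against 1679 to 1895 CPM, a share of the library total that leaves out Gm26917. Nr4a1 stood at percentile 54.2 to 61.6 in skin and 99.5 to 99.7 in sorted cells (16.9 to 23 and 880 to 1203 CPM), and Zfp36 at 73.1 to 77 and 99.8. Fos, outside the 10 genes, stood at 47.6 to 54.8 and 99.9. Klf4 was near the top in both, at 96.8 to 97.2 and 99.5 to 99.6. Egr3 stood at 62.8 to 73 in skin and 86.2 to 87.9 in sorted cells. Cell composition and handling differ between these materials together and cannot be told apart.

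In some groups, and not in others, 1 mouse was highest or lowest for most of the early genes. In knockout skin at 12 days replicate 1 was lowest for 9 of the 10 genes (43.3% of all genes) and replicate 3 highest for 9 (32.9% of all genes), for example 499, 1120 and 1376 steps of Egr1. In DMBA/TPA controls replicate 3 was highest for 9 genes (37.2% of all genes) and replicate 2 lowest for 9 (33.3%). In the sorted knockout set replicate 1 was lowest for 8 genes among controls (38.7% of all genes) and for 8 among knockout mice (30.1%). In skin labelled knockout, replicate 1 was highest for 7 at 4 days (33.7%) and lowest for 7 at 10 days (30%). In P95H-set controls at 28 days replicate 4 was lowest for 6 (32.8%). In P95H skin at 12 days replicate 1 was lower than replicate 2 for 8 of the 10 (49.5% of all genes), and at 28 days P95H replicate 4 was highest for 6 (19.1%), with 1036, 1302, 1270 and 2178 steps of Dusp1. No such order was seen in knockout-set control skin. There replicate 1 was highest for 4 genes and lowest for 4 (38.6% and 37.5% of all genes), and replicate 3 highest for 5 and lowest for 4 (34.5% and 29.8%). The same held for P95H-set controls at 12 days, where no mouse was highest or lowest for more than 3 (12.8% to 30.3% of all genes). It also held for P95H cells after DMBA/TPA, where none was highest for more than 4 or lowest for more than 5 (31% to 36.9% of all genes). Averaged over the 10 genes on the log2 scale, control skin of the knockout set ranged from 10.37 to 10.43 between mice and the 12-day mice from 9.99 to 10.61.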

How the data were processed

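RNA was sequenced from 38 libraries, 26 of whole back skin and 12 of sorted reporter-positive cells. Per the labels' protocols, RNA was extracted with Trizol and libraries came from stranded total RNA kits, which differed between the knockout and P95H whole-skin sets. The deposited values are normalised counts, a signal scaled between libraries by the authors. The submitters' processing notes name STAR, featureCounts and DESeq2, with no role or version, and the build of the genome was not named in any of the sources used. Each table lists 49585 genes, with 93 repeated symbols.

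Within a library every deposited value was a whole multiple of 1 step (tolerance 0.0001). For the sorted sets these multiples were taken as reads for edgeR and DESeq2, and the deposited values went into limma. For whole skin the steps replaced the deposited values with no further scaling. The median log2 change of all genes was then between -0.04 and 0.05 in every comparison. TMM factors left the whole-skin values as they were.

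Groups were compared with limma 3.58.1 (R 4.3.3), with a mean-variance trend on log2(value + 1), all groups of a table in 1 fit, a minimum mean of 10, two-sided tests, Benjamini-Hochberg adjustment over all genes kept and a threshold of 0.05. Fold changes are on that log2(value + 1) scale and SE comes from the fit. The comparisons of 4, 10 and 12 days with control use the same 3 control mice. Alternatives were a pseudocount of 5, a minimum mean of 1, equal library totals, TMM, the deposited values, only the compared groups, the replicate number as a block, each replicate left out, edgeR 4.0.16 and DESeq2 1.42.0. Those that treat Gm26917 or sorted knockout replicate 2 in edgeR were chosen after seeing the data. In whole skin a minimum mean of 1 hardly filters, because genes without signal stand at 1 step and are kept. Of the tests, limma alone was checked on simulated data, for the comparisons between groups and not for the difference between the P95H effects.

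The 10 genes, the marker lists and the pathway lists were chosen with earlier results of these data known. Named were the 10 genes and Srsf2, at most the 4 genes of smallest p among those called from each pathway list and comparison, and the 8 genes most like the early genes in each whole-skin table. Exon lengths came from GENCODE M21, in which 6 of the 10 gene identifiers matched with their version. Promoters came from RefSeq (GRCm38.p6), and those of Egr1, Egr3 and Ier2 were not used here. Depth limits low genes most, and none of the 10 is low. The number of mice, 2 to 5 per group, limits the precision.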

Additional observations from a re-analysis of the deposited data

Results flagged for a closer look

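In whole skin of the P95H set, 2 groups had enough mice for Dixon's test, which gives 20 cases of a gene in a group. In 3 of these, from 2 mice, a single mouse stood far from the others, and chance does so in about 1 in 20 cases. Egr3 was at 1179 steps in 1 control at 12 days (replicate 5), against 793 to 869 in the other 4. Klf4 was at 4304 steps in the same mouse, against 5128 to 5407. Ier3 was at 383 steps in P95H replicate 3 at 28 days, against 528 to 555 in the other 3.

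The difference between times was tested between the groups labelled knockout, whose comparisons with control share the same controls. From 4 to 10 days it was log2 1.68 for Egr1, 1.42 for Egr2, 1.61 for Egr3, 1.22 for Ier3 and 0.76 for Ier2, and -0.83 for Dusp1 and -0.64 for Klf6 (limma, all with an adjusted p under 0.05). From 10 to 12 days it was log2 -1.82 for Egr1, -1.17 for Egr2, -1.39 for Egr3 and -0.75 for Ier2, and 0.63 for Dusp1 and 0.59 for Klf6. The 10-day libraries had the highest hair markers and, in steps, did not have lower Srsf2 than control. Against control, Srsf2 passed the test at none of the 3 times, though it lay below the controls without overlap at 4 and 12 days. Between the times it was called by limma, at log2 0.30 from 4 to 10 days (adjusted p = 0.0323) and -0.43 from 10 to 12 days (adjusted p = 0.0072).

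At 10 days 4 genes lay wholly above control in whole skin (in steps) and wholly below control in sorted cells (in normalised reads). As shares of the library total without Gm26917, Egr1, Egr3 and Ier3 overlapped control in skin, and Egr2 and Ier3 in sorted cells. Their log2 changes in skin and in sorted cells were 0.81 and -1.22 for Egr1, 1.01 and -0.39 for Egr2, 0.98 and -1.10 for Egr3, and 0.91 and -0.79 for Ier3. The difference between the materials was not tested, because their tables were normalised separately.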

How the results depend on the processing

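Of 1220 values of single genes under alternatives, 1092 kept their direction and side of the threshold, 65 lost the call, 26 gained one and 37 changed sign. Most of the 90 gene results behind these values were not called at the outset and had no call to lose. The total therefore does not measure how stable the calls are. The number of early genes called was 6 in skin at 10 days against control. It was 1 with a minimum mean of 1 and ranged from 1 to 4 with a replicate left out. In P95H skin at 12 days, 2 became 1 with a minimum mean of 1, 0 with the deposited values, and 0 to 2 with a replicate left out. At 28 days, 5 became 2 with a minimum mean of 1, 1 with the deposited values, 3 with only the compared groups, and 2 to 6 with a replicate left out. In sorted knockout cells, 0 became 5 by DESeq2 and 1 by edgeR without knockout replicate 2, and 0 to 2 with a replicate left out by limma. After DMBA/TPA, 0 became 1 by DESeq2. The cause was not tested in these cases.

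Signs changed with equal totals for Zfp36 (-0.058 at 10 days, -0.22 from 4 to 10 days, 0.22 from 10 to 12 days) and Dusp1 (-0.0094 at 12 days). With the deposited values they changed for Klf4 (0.21 at 10 days, 0.15 from 4 to 10 days), Nr4a1 (0.067) and Ier2 (0.0018) at 12 days, and Klf6 (0.32) in P95H skin at 28 days. Ier2 in sorted knockout cells was 0.66 by edgeR, 0.71 by DESeq2 and 0.66 by edgeR without Gm26917. With a replicate left out in turn, the lowest and highest values had opposite signs in knockout skin at 12 days for Dusp1 (-0.13 and 0.21), Nr4a1 (-0.19 and 0.29) and Ier2 (-0.19 and 0.15), at 4 days for Nr4a1 (-0.38 and 0.095), and for Zfp36 from 4 to 10 days (-0.087 and 0.094) and from 10 to 12 days (-0.19 and 0.070). They did so in P95H skin at 12 days for Nr4a1 (-0.28 and 0.087), Dusp1 (-0.29 and 0.20), Egr1 (-0.26 and 0.14) and Klf6 (-0.093 and 0.0061), at 28 days for Nr4a1 (-0.018 and 0.42), in sorted knockout cells for Ier2 (-1.24 and 0.63) and after DMBA/TPA for Egr2 (-0.058 and 0.34). None of these changes was called in the full comparison.

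Counts of all genes called moved more. With a minimum mean of 1 they went from 2205 to 342 at 4 days, 4913 to 1970 at 10 days, 249 to 88 at 12 days, 1269 to 818 and 2226 to 908 in P95H skin at 12 and 28 days, 2 to 54 for the difference between those times, 1 to 14 for the controls of 28 against 12 days, and 0 to 2 after DMBA/TPA. The deposited values gave 743 at 4 days, 110 at 12 days, 200 and 628 in P95H skin, 71 for the difference and 454 for the controls. Only the compared groups gave 775 at 4 days and 123 at 12 days. Equal totals gave 8018 at 10 days, 0 in sorted knockout cells (7 before) and 1 after DMBA/TPA, where TMM and edgeR also gave 1. In sorted knockout cells edgeR gave 3, DESeq2 1283 and edgeR without knockout replicate 2 gave 366. DESeq2 gave 338 after DMBA/TPA. A pseudocount of 5 gave 2 for the P95H controls.

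The replicate block gave 1 called early gene in P95H skin at 12 days and 7 at 28 days and changed no other count of early genes called. Over all genes it gave 786 in P95H skin at 12 days, 1 for the difference between times, 0 for the controls, 0 for the sorted knockout and 113 for the DMBA/TPA set. The numbers share no label beyond the number. In deviations from group means, same-numbered libraries correlated from -0.46 to 0.84 over 18 pairs in knockout skin and -0.19 to 0.37 over 16 in P95H skin. They correlated from 0.06 to 0.19 over 3 in the sorted knockout set and 0.06 to 0.15 over 3 in the DMBA/TPA set. Differently numbered libraries gave -0.67 to 0.58 in knockout skin and -0.47 to 0.35 in P95H skin. In the sorted knockout set they gave -0.159 to -0.005, and in the DMBA/TPA set -0.141 to 0.024. In both sorted sets every same-numbered pair thus lay above every other pair. Whether the numbers pair mice there was not tested, and the main tests are unpaired.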

Other observations

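Heat shock genes, which encode chaperones induced by protein stress, were counted in whole skin labelled knockout. At 4 days 2 of 13 were lower than control and 0 higher, where 11.3% of all genes were called. Hspb1, a small heat shock protein of keratinocytes, was lower by log2 -0.97 (limma adjusted p = 0.00234), and Hspa1a, an inducible HSP70, by -0.55 (adjusted p = 0.0349). In the 10-day libraries labelled knockout 3 of 13 were higher and 0 lower, where 25.3% of all genes were called: Hsp90aa1, an inducible HSP90 (log2 0.90, adjusted p = 0.0227), Hspd1, the mitochondrial chaperonin (0.59, adjusted p = 0.0319), and Hspa8, the constitutive HSC70 (0.75, adjusted p = 0.0342). From 4 to 10 days 9 of 13 rose, where 18.9% of all genes did, and from 10 to 12 days 9 of 13 fell, where 18.3% did. At 12 days Hspb1 was lower than control (log2 -0.80, adjusted p = 0.00681). In P95H skin 0 of 13 passed the test at either time. Hair markers were also highest at 10 days, and their part in these values was not tested.

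The genes whose profile over libraries was most like the centred mean of the 10 early genes differed between the whole-skin sets. Likeness is the root mean square distance on the log2 scale. Over the 12 knockout-set libraries, Zfp598 was the most alike of 13666 genes ranked (0.0565), followed by Scrib (0.0722), Rai1 (0.075), Slc41a1 (0.0787), Rhbdf2 (0.0787), Trp53i11 (0.079), Src (0.0844) and Rgp1 (0.0865). A gene that did not vary would score 0.228 there, and the early genes themselves scored 0.177 (Ier2) to 0.635 (Egr1), 8 of 10 further from their own mean than such a gene. Over the 14 P95H-set libraries, Coq10b was the most alike of 12849 (0.0893), followed by Traf3 (0.0907), Kcnk6 (0.0947), Wnt10a (0.095), Tob1 (0.0993), Arf6 (0.0995), Adgrl2 (0.10) and Peli1 (0.103). A flat gene would score 0.199 there, and the early genes scored 0.113 (Zfp36) to 0.305 (Nr4a1). In the knockout set Traf3 ranked 148 and Coq10b 1491, and in the P95H set Rgp1 ranked 57 and Zfp598 645. The distance favours genes of small range, so it describes these libraries only.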
